A study of Mus musculus with 6 samples.

Results

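Replication-dependent histone genes encode the H1, H2A, H2B, H3 and H4 proteins that package newly made DNA. They were taken as the protein-coding genes whose GENCODE M21 symbol starts with Hist1h, Hist2h, Hist3h or Hist4, which gave 67 genes among the 55401 identifiers of the count table. Of these, 25 had 10 or more counts in at least 3 libraries, and 24 of those 25 also entered the differential expression test. The other 42 genes comprised 13 without a count in any library and 29 with some counts. ADC106 is a mouse angiosarcoma cell line, a tumour of endothelial origin, with a genotype given as WT. The cells received 12.5 nM of a negative control (NC) mimic or of a miR-497 mimic, a synthetic form of the microRNA, and RNA was taken at day 3. Each group had 3 libraries of one cell line, made from poly(A)-selected RNA. The stated purpose was to chart the genes that respond to raised miR-497.

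Most mRNAs end in a poly(A) tail, but the usual mRNA of a replication-dependent histone gene ends just after a short stem-loop, which is bound by the stem-loop binding protein Slbp and cut with the help of the U7 small nuclear ribonucleoprotein. These mRNAs are made mainly in S phase and are lost quickly when DNA synthesis stops. A minor share is cleaved further downstream and polyadenylated, and poly(A) selection retains mainly that share. The values here therefore describe mainly polyadenylated histone transcripts and not the total histone mRNA. Carry-over of mRNAs that end at the stem-loop was not tested.

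The stem-loops of the 6 genes that changed are shown because they are the element that sets these mRNAs apart. Each is read 5′ to 3′ in the sense of the transcript from GENCODE M21 (GRCm38), with the 16-base stem-loop in capitals.
Hist1h1c: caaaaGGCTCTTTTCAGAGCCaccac
Hist3h2ba: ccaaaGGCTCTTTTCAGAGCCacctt
Hist1h3e: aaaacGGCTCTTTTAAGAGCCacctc
Hist1h4i: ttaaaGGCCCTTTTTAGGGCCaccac
Hist1h4c: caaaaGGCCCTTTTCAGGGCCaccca
Hist1h4h: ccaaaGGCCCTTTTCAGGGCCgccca
The H1, H2B and H3 genes shown share a GGCTC stem, and the 3 H4 genes share a GGCCC stem. A 16-base motif (GG, any 2 bases, CTT, any base, T, any base, AG, any 2 bases, CC) was searched on the sense strand of the first 100 bases after the stop codon. It was found in 45 of the 67 genes, and 52 of the 67 have an annotated 3′ UTR of 16 or more bases. In the same window of 19907 other protein-coding genes with a 3′ UTR of 100 or more bases it was found in 5, or 0.0251%. Among these were H2afx, which encodes the histone variant H2A.X, and H2bfm. The 67 genes had no such length limit. In Hist1h2bc, the gene with the most counts, the motif was not matched in this window. For each gene only the annotated coding transcript with the longest 3′ UTR was searched, so a stem-loop in another transcript of Hist1h2bc was not looked for.

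The mature mouse miR-497-5p is shown because its seed defines the sites searched for below. It lies at chr11:70234730-70234751 on the plus strand (RefSeq, GRCm38.p6), and its seed, bases 2 to 8, is in capitals.
mmu-miR-497a-5p: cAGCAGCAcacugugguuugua
The sequence of the transfected mimic itself is not given in the sources used here. The 7-base matches TGCTGCT and GCTGCTA, searched on the sense strand and overlapping by 6 bases in an 8-base match, occurred in the 3′ UTR of 5 of the 67 genes. The 4 sites in genes that met the count rule are given with the match in capitals.
Hist1h1d: acaggactTGCTGCTttttcaca
Hist1h2be: tccaagccTGCTGCTgtactgtt
Hist2h2be: caggctacTGCTGCTtctctggg
Hist2h4: cgttgtccTGCTGCTgattggct
None of these 4 genes passed the test of a difference, and 0 of the 6 genes that did pass has such a site. Among 12834 tested genes with a 3′ UTR, of any length, 28.2% hold a site. Coding sequences held a site in 34 of the 67 genes, in 15 of 18 H2A and 17 of 18 H2B genes but in 0 H3 and 0 H4 genes, against 15.9% of tested genes with a coding sequence of up to 700 bases. Histone genes share much sequence: a median of 54.1% of the 50-base stretches of the 67 genes occur in transcripts of another gene. Their coding sites therefore need not be separate occurrences, and the shares were not tested against each other. Of the 6 genes that changed, 1 (Hist3h2ba) has a coding site.

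The libraries held 28525751 to 36159499 counts with NC and 25777676 to 32126726 with miR-497. A total of 14661 genes were tested, and 7307 passed. The 10 endothelial markers were all tested, with a summed level of 9463 to 10163 CPM (counts scaled to the library total, adjusted by trimmed mean of M values) with NC and 8989 to 9518 with miR-497. Of the endothelial markers, 6 passed as higher with miR-497 and 3 as lower, where 23.8% and 26.0% of all tested genes did. Their sum therefore combines changes in both directions. Mesenchymal markers summed to 279 to 300 CPM with NC and 436 to 523 with miR-497, with Lum at 0 in every library. Of the 4 mesenchymal markers that were tested, 2 passed as higher and 1 as lower. Leukocyte markers summed to 9.33 to 9.71 and 15.7 to 20.95 CPM, most of it Cd68, with Ptprc at 4 to 7 counts in each library and Adgre1 at 0 to 2. Epithelial markers summed to 0.465 to 1.12 and 0.393 to 0.795 CPM. Mitochondrially encoded genes took 2.03% to 2.15% of counts with NC and 2.94% to 3.77% with miR-497. The part of these shifts in the histone values was not tested. Nothing in the labels says that the libraries of a group came from separate cultures, so p-values measure only the spread between these libraries.

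Histone transcripts in these poly(A) libraries were a small fraction of every library and their sum was lower with miR-497. The 67 genes together took 1965, 2332 and 1758 counts in the NC libraries and 1134, 1335 and 1339 in the miR-497 libraries. Their summed level was 61.8 ± 2.35 CPM with NC and 43.7 ± 1.56 with miR-497 (SD, n = 3), a ratio of 0.706. All 3 miR-497 libraries lay below all 3 NC libraries. In bulk RNA, fewer cells that make these transcripts and less RNA per cell cannot be told apart. The 3 genes with the most counts, Hist1h2bc, Hist1h1c and Hist1h4i, held 69.8% of the counts, so the sum mainly follows them: without these 3 the other 22 genes that met the count rule summed to 13.4 ± 0.835 and 11.9 ± 2.26 CPM, a ratio of 0.882, and the groups overlapped.

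**Figure D1:**
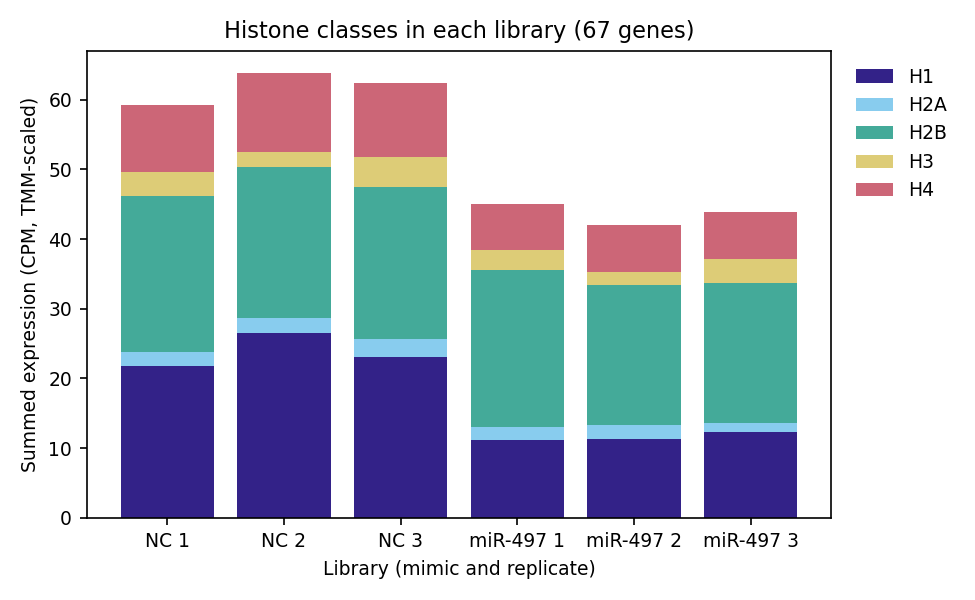
Summed expression of the 67 histone genes in each library (y axis, CPM scaled by trimmed mean of M values), stacked by class; each bar is 1 library of NC or miR-497 mimic. The H1 and H4 segments are shorter in all 3 miR-497 libraries, and the H2B segment stays between 20.1 and 22.6 CPM in all 6.

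By class, the sums followed their leading genes. The 6 H1 genes summed to 23.8 ± 2.42 CPM with NC and 11.6 ± 0.595 with miR-497, a ratio of 0.488. The 13 H4 genes summed to 10.5 ± 0.809 and 6.71 ± 0.0272 CPM, a ratio of 0.636. In H1 and H4 the groups did not overlap, but each sum rests largely on 1 gene. Without Hist1h4i the other 12 H4 genes summed to 3.93 ± 0.772 and 3.66 ± 0.705 CPM, a ratio of 0.932, with overlapping groups. Without Hist1h1c the other 5 H1 genes summed to 3.15 ± 0.597 and 1.79 ± 0.886 CPM, a ratio of 0.568, also with overlapping groups. These sums without the leading gene were chosen after the values had been seen. The 18 H2B genes summed to 21.9 ± 0.339 and 20.9 ± 1.43 CPM, a ratio of 0.955. The 12 H3 genes had a ratio of 0.817, and in H2B and H3 the groups overlapped. The 18 H2A genes summed to 2.24 ± 0.282 and 1.69 ± 0.358 CPM, a ratio of 0.754. Their groups did not overlap, but the lowest NC library (2.02 CPM) and the highest miR-497 library (1.95 CPM) were close. No test was made of a sum or of a difference between classes.

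Gene by gene, the quasi-likelihood test of edgeR, adjusted by Benjamini-Hochberg over all tested genes, called 5 of 24 histone genes lower and 1 higher with miR-497. Of all 14661 tested genes, 26.0% were called lower and 23.8% higher, or 49.8% in either direction, so 5 of 24 (20.8%) is near the background and says nothing particular about histone genes. Likewise 5 of the 24 lay with all 3 miR-497 values below all 3 NC values, against 29.6% of all tested genes, and 1 lay above, against 27.8%. Each of the 6 called genes changed at least 2-fold; of all tested genes, 5.19% were called lower and 3.63% called higher with at least that size. Hist1h4d and Hist2h4 were also more than 2-fold lower by their point estimates but were not called. Precision was low for most of the 24 genes. The standard error (SE) of their log2 fold change had a median of 0.561, against 0.0969 in all tested genes. With such errors mostly large changes can be called, but Hist1h1c (SE 0.103) and Hist1h4i (SE 0.197) were more precise than that median. Whether the size of the 6 changes is particular to histone genes was not tested. Of the 25 genes that met the count rule, 18 had fewer than 200 counts over the 6 libraries. Hist3h2ba and Hist1h3e met it through NC libraries only, so their being lower is tied to the rule that kept them. Hist1h4c met it with 3 NC libraries but 1 miR-497 library, so its being lower is partly tied to that rule.

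**Figure D2:**
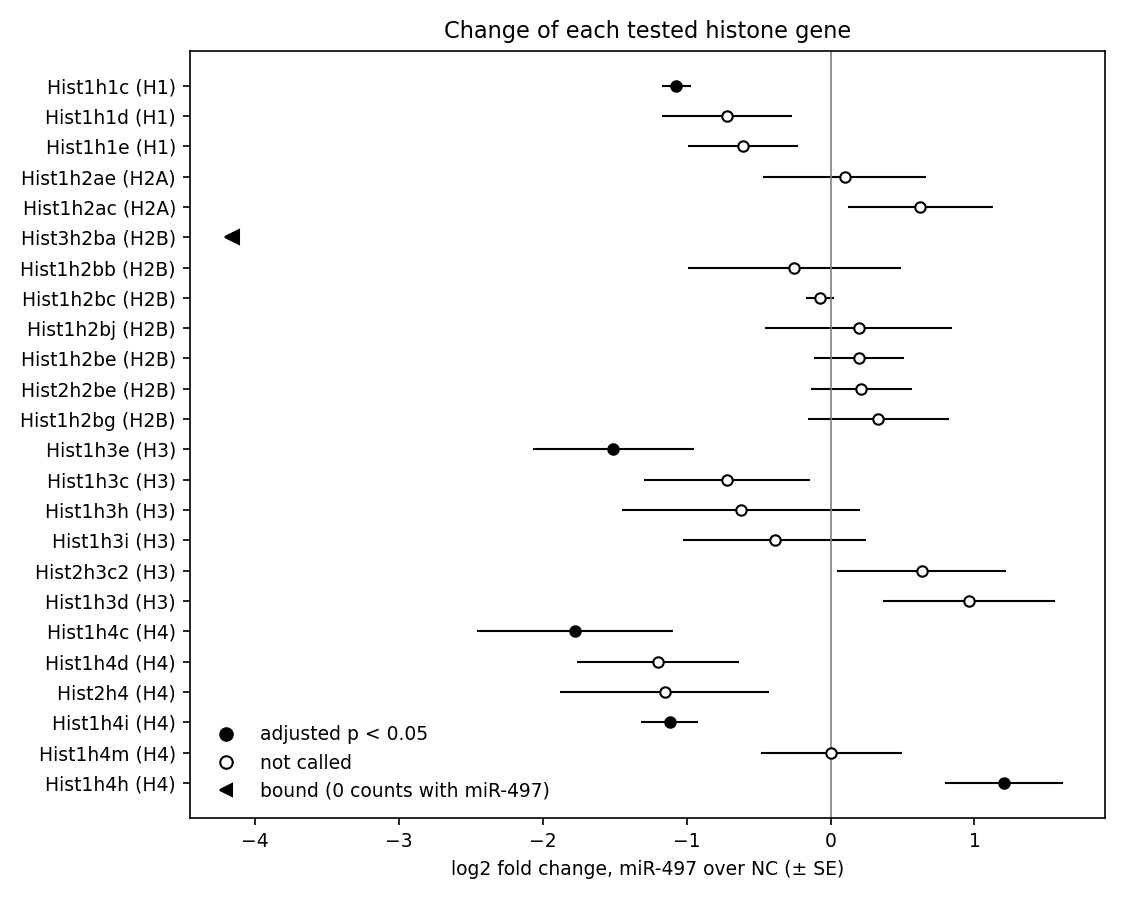
Log2 fold change, miR-497 over NC, of the 24 tested histone genes by class (x axis; bars are ± SE; filled points have an adjusted p under the threshold of 0.05). The triangle is the bound for Hist3h2ba, which had 0 counts with miR-497; Hist1h1c and Hist1h2bc carry the shortest bars.

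Linker histone H1 binds the DNA that enters and leaves the nucleosome. Hist1h1c (ENSMUSG00000036181, chr13:23738808-23740367, plus strand), which encodes H1.2, was at 18.7, 22.7 and 20.5 CPM in the NC libraries and at 9.74, 10.2 and 9.51 in the miR-497 libraries. The groups were far apart, and the miR-497 libraries lay close together. The log2 fold change was -1.07 (SE 0.103, adjusted p = 2.3e-07 in edgeR), and it stayed called in each alternative fit. Of the other H1 genes, Hist1h1d (H1.3) had 43, 35 and 18 counts with NC and 9, 18 and 25 with miR-497. Its log2 fold change was -0.72 (SE 0.449, adjusted p = 0.198 in edgeR), with overlapping groups. Hist1h1e (H1.4) had 54, 67 and 46 counts with NC and 27, 17 and 53 with miR-497, the last library lying among the NC values in CPM. Its log2 fold change was -0.61 (SE 0.384, adjusted p = 0.204 in edgeR), and without miR-497 replicate 3 it was -1.09 (adjusted p = 0.042 in edgeR). Hist1h1e shares 496 exon bases on the same strand with Hist1h2be, so the counts of these genes depend on how shared reads were assigned.

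H2A and H2B pair as dimers at the faces of the nucleosome. Only 2 of 18 H2A genes met the count rule. Hist1h2ac had a log2 fold change of 0.62 (adjusted p = 0.324 in edgeR) and Hist1h2ae of 0.10 (adjusted p = 0.902 in edgeR), and in each the groups overlapped. Hist1h2ac and Hist1h2ae overlap predicted miRNA models on the opposite strand, and all 18 H2A genes overlap some annotated gene there. Such overlap was present in 2 of the 25 histone genes that met the count rule and in 19 of the 42 that did not. Whether counting used strand is not given in the sources used here. The part of this overlap in the low H2A counts was not tested.

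Among the H2B genes, Hist1h2bc (ENSMUSG00000018102, chr13:23684199-23692908, plus strand) was at 16.5, 17.8 and 16.9 CPM with NC and at 17.7, 15.9 and 15.1 with miR-497. The groups overlapped. Its log2 fold change was -0.07 (SE 0.0955, adjusted p = 0.559 in edgeR), as precise an estimate as that of Hist1h1c. Hist3h2ba (ENSMUSG00000056895, chr11:58948920-58949533, plus strand) had 29, 14 and 17 counts with NC and 0, 0 and 0 with miR-497. It was the only tested histone gene without a count in a whole group. A count of 0 was taken to allow up to 3 counts over the group. On that limit Hist3h2ba was at least 17.9-fold lower with miR-497 (adjusted p = 9.87e-05 in edgeR). The limit covers counting error in the miR-497 libraries only, with the NC level taken as measured. Hist3h2ba met the count rule through NC libraries only, so its being lower is tied to that rule, and the p-value is not separate evidence. The remaining H2B genes did not pass: Hist1h2bg had a log2 fold change of 0.33, Hist2h2be of 0.21, Hist1h2be of 0.20, Hist1h2bj of 0.20 and Hist1h2bb of -0.25, with overlapping groups in each.

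**Figure D3:**
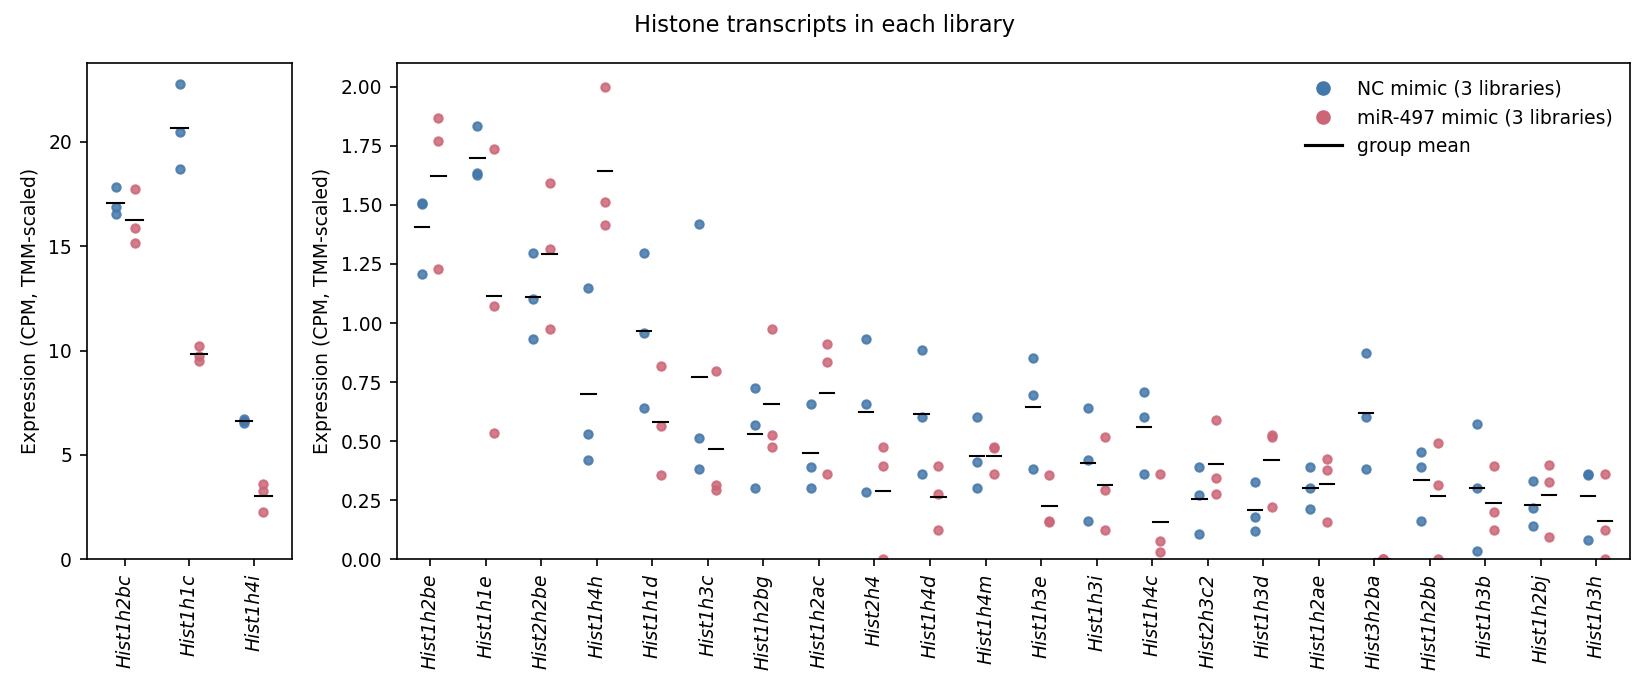
Expression of the 25 histone genes that met the count rule (y axes, CPM scaled by trimmed mean of M values; the left panel has the 3 genes with the highest means on its own scale). Points are libraries and lines group means; Hist1h1c and Hist1h4i separate by mimic, Hist1h2bc does not, and most of the other genes lie under 1 CPM with overlapping groups.

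H3 and H4 form the tetramer at the core of the nucleosome. Of the 7 H3 genes that met the count rule, Hist1h3e (ENSMUSG00000069273, chr13:23561534-23562369, minus strand) had 23, 14 and 24 counts with NC and 9, 5 and 5 with miR-497. In CPM the groups did not overlap, but the lowest NC library and the highest miR-497 library were close. The log2 fold change was -1.51 (SE 0.560, adjusted p = 0.0336 in edgeR). This call was lost with DESeq2 (adjusted p = 0.054), and in edgeR without NC replicate 1 (adjusted p = 0.0827), without NC replicate 3 (0.139), without miR-497 replicate 2 (0.122) and without miR-497 replicate 3 (0.118). Of its 50-base stretches, 73.4% also occur in transcripts of other genes, so its counts are uncertain. Hist1h3e met the count rule through NC libraries only, so its being lower is tied to that rule.

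The other H3 genes did not pass. Hist1h3d had 4, 12 and 5 counts with NC and 13, 7 and 16 with miR-497, a log2 fold change of 0.96 (SE 0.601, adjusted p = 0.198 in edgeR). Hist1h3c had 17, 14 and 40 counts and 20, 10 and 9, a log2 fold change of -0.72 (SE 0.575, adjusted p = 0.319 in edgeR). For Hist1h3c a single NC library, replicate 3, was high, and without it the log2 fold change was 0.05 (adjusted p = 0.959 in edgeR). Hist1h3h was at -0.62, Hist1h3i at -0.39 and Hist2h3c2 at 0.63 on the log2 scale. Hist1h3b met the count rule with 19, 11 and 1 counts with NC and 5, 4 and 12 with miR-497 but not the filter of the test.

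The H4 genes moved in both directions. Hist1h4i (ENSMUSG00000060639, chr13:22040636-22041362, minus strand) was at 6.60, 6.71 and 6.53 CPM with NC and at 3.26, 3.62 and 2.26 with miR-497. The NC libraries were nearly equal, and each exceeded every miR-497 library. The log2 fold change was -1.12 (SE 0.197, adjusted p = 0.000154 in edgeR), and it stayed called in each alternative fit. Hist1h4c (ENSMUSG00000060678, chr13:23697635-23698454, minus strand) had 12, 22 and 20 counts with NC and 2, 1 and 11 with miR-497. Its highest miR-497 library nearly reached its lowest NC library. Hist1h4c met the count rule with 3 NC libraries but 1 miR-497 library, so its being lower is partly tied to that rule. The log2 fold change was -1.78 (SE 0.681, adjusted p = 0.0393 in edgeR). That call was lost with DESeq2 (adjusted p = 0.0565), and in edgeR without NC replicate 2 (adjusted p = 0.104), without NC replicate 3 (0.118), without miR-497 replicate 1 (0.137) and without miR-497 replicate 2 (0.16).

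Hist1h4h (ENSMUSG00000060981, chr13:23531050-23531519, plus strand) was the only histone gene called higher. It was at 0.422, 1.15 and 0.532 CPM with NC and at 1.51, 1.42 and 2.00 with miR-497. NC replicate 2 lay nearest to the miR-497 libraries, and the groups did not overlap. The log2 fold change was 1.21 (SE 0.410, adjusted p = 0.0215 in edgeR), and it was not called without NC replicate 1 (adjusted p = 0.0834), without NC replicate 3 (0.057) or without miR-497 replicate 3 (0.0865). Of the remaining H4 genes, Hist1h4d had 12, 22 and 25 counts with NC and 7, 4 and 12 with miR-497, a log2 fold change of -1.20 (SE 0.563, adjusted p = 0.0884 in edgeR). Hist2h4 had 31, 24 and 8 counts and 12, 0 and 12, a log2 fold change of -1.15 (SE 0.725, adjusted p = 0.202 in edgeR). In Hist1h4d and Hist2h4 the groups overlapped. Hist1h4m was at 0.301, 0.411 and 0.603 CPM with NC and 0.477, 0.472 and 0.361 with miR-497, and its groups overlapped (log2 fold change 0.0035, SE 0.490).

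Per kilobase of exon, the 4 genes with the highest levels kept the same order with either mimic. Hist1h2bc was at 14.8 ± 0.582 CPM per kilobase with NC and Hist1h1c at 13.2 ± 1.30, while Hist1h4i was at 9.10 ± 0.120 (SD, n = 3). With miR-497, Hist1h2bc was at 14.1 ± 1.15, Hist1h1c at 6.30 ± 0.234 and Hist1h4i at 4.19 ± 0.966 CPM per kilobase. Hist1h4h followed at 1.49 ± 0.834 with NC and 3.49 ± 0.667 with miR-497, near Hist1h4i in the latter. Hist1h3c, at 1.23 ± 0.897 and 0.743 ± 0.450, and Hist1h4m, at 1.09 ± 0.380 and 1.09 ± 0.164, were next with NC, and these did not differ from each other beyond their spread. With miR-497, Hist1h2bg (1.07 ± 0.445) and Hist1h3i (0.761 ± 0.477) also lay above Hist1h3c, within their spread.

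Ratios within a library need no scaling between libraries. Hist1h1c over Hist1h2bc was 1.13, 1.28 and 1.21 in counts with NC and 0.549, 0.644 and 0.628 with miR-497. Hist1h4i over Hist1h2bc was 0.400, 0.376 and 0.387 with NC and 0.184, 0.228 and 0.149 with miR-497. For each of these ratios the groups did not overlap, and a 2-sided exact permutation test gave p = 0.1 (Benjamini-Hochberg adjusted 0.15 over 3 ratios), the smallest that 3 against 3 libraries allow. Hist1h1c over Hist1h4i was 2.83, 3.39 and 3.14 with NC and 2.99, 2.83 and 4.20 with miR-497, with overlapping groups (exact permutation p = 0.9). The 3 ratios were chosen after the values had been seen.

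By position, 54 of the 67 genes lie on chromosome 13 over 2219 kb, 10 on chromosome 3, 2 on chromosome 11 and 1 on chromosome 6. Those that met the count rule numbered 21, 3, 1 and 0. Counts were concentrated in genes with long annotated 3′ UTRs: the 27 genes with a 3′ UTR over 150 bases held 88.4% of the counts and had a median of 62 counts over the 6 libraries, against 15 for the other 40 genes. Hist1h2bc, Hist1h1c and Hist1h4i, all among the 27, held 69.8% of the counts by themselves. These counts were not scaled by exon length, which a long 3′ UTR adds to. Hist1h4h, with 93 bases, had the most counts among the other 40 genes. Shared sequence also differed: a median of 32% of the 50-base stretches of the 25 genes occurred in another gene's transcripts, 66.5% in the 42 genes below the count rule and 88.7% in the 13 at 0. How reads that match several genes were counted is not given in the sources used here. Whether a count of 0 means that a transcript was absent was not tested.

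**Figure D4:**
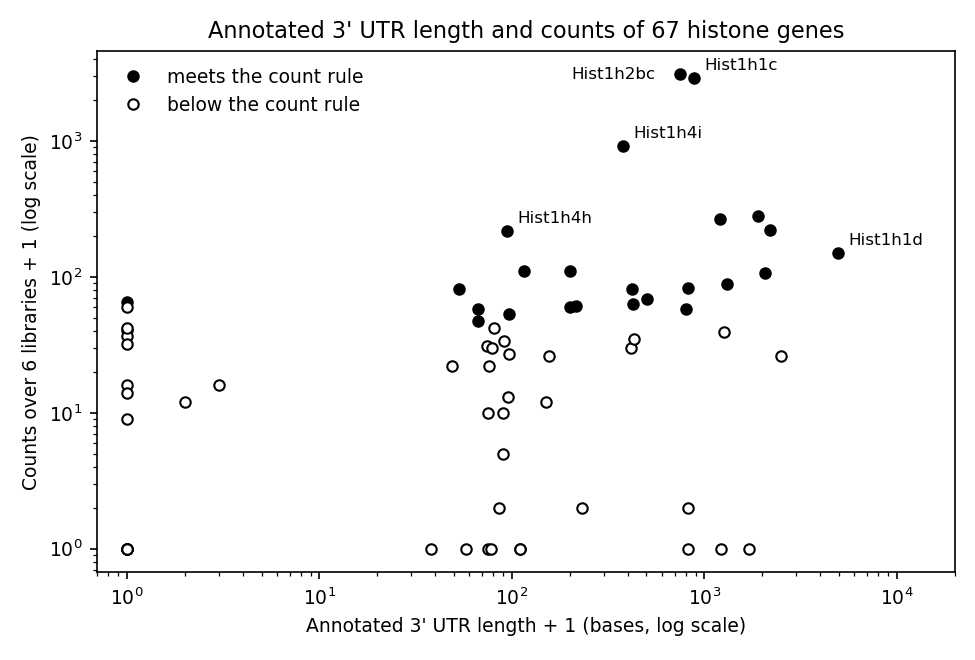
Annotated 3′ UTR length plus 1 (x axis, bases, log scale) against counts summed over the 6 libraries plus 1 (y axis, log scale) for the 67 histone genes. Filled points met the count rule; the 3 genes with the most counts have 3′ UTRs of 376 to 880 bases.

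Near the limit of the count rule, 7 genes met it with exactly 3 libraries, such as Hist1h2bj with 11, 8 and 4 counts with NC and 10, 3 and 10 with miR-497. Another 3 missed it with 2 libraries. These were Hist1h2ab with 4, 1 and 10 counts and 5, 0 and 10, Hist1h2ai with 18, 8 and 12 and 9, 9 and 3, and Hist1h4n with 6, 2 and 6 and 0, 15 and 12.

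The factors that make and process histone mRNA were called in both directions. Of 30 listed genes, 5 were called higher and 11 lower, where 23.8% and 26.0% of all tested genes were, with a median log2 fold change of -0.10, against -0.02 for all tested genes; with offsets for GC content and exon length the calls were 9 higher and 6 lower. Slbp, which binds the stem-loop, was at 80.2 ± 2.63 CPM with NC and 70.5 ± 3.11 with miR-497 (log2 fold change -0.19, SE 0.0601, adjusted p = 0.0167 in edgeR). That call was lost without NC replicate 3 (adjusted p = 0.0775), without miR-497 replicate 3 (0.0525), with upper-quartile scaling (0.0536) and with the offsets (0.161).

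Of the U7 particle's own proteins, Lsm10 rose from 9.29 ± 1.30 to 17.0 ± 1.15 CPM (log2 fold change 0.87, SE 0.119, adjusted p = 1.14e-05 in edgeR). Lsm11 fell by 0.30 on the log2 scale (adjusted p = 0.0062 in edgeR). Cpsf3, the nuclease that cuts histone pre-mRNA, rose by 0.37, the scaffold Sympk by 0.32 and the cap-binding Ncbp1 by 0.38. Tut7, a terminal uridylyltransferase, fell by 0.43, and Lsm4, a subunit of the Lsm ring, by 0.37. Npat, the activator of histone gene transcription, had a log2 fold change of 0.16 (adjusted p = 0.0628 in edgeR). Its partner Casp8ap2 was at 0.11, the H4 gene activator Hinfp at -0.10, the exonuclease Eri1 at 0.01 and the U7 factor Zfp473 at -0.03, and none of these passed. Npat was called without miR-497 replicate 3 (log2 fold change 0.22, adjusted p = 0.0143 in edgeR) and with the offsets (0.27, adjusted p = 0.00326), as was Casp8ap2 with the offsets (0.21, adjusted p = 0.0211).

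**Figure D5:**
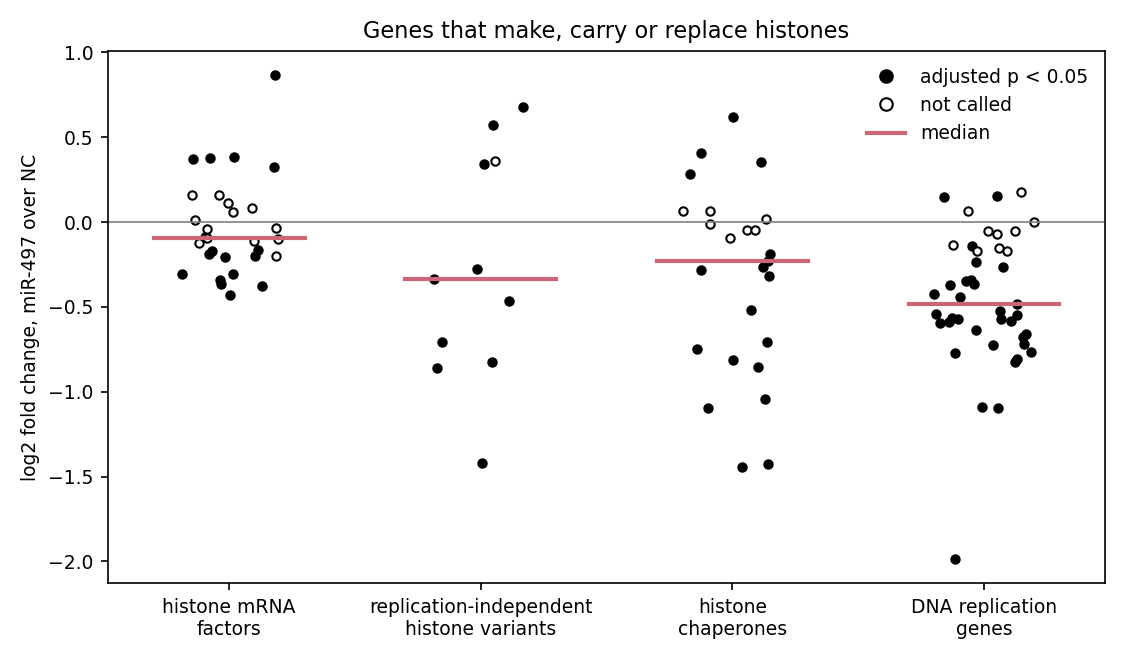
Log2 fold change, miR-497 over NC, of each tested gene in 4 supporting lists (y axis; filled points have an adjusted p under 0.05; the red line is the list's median; horizontal scatter is arbitrary). The medians run from -0.10 in the histone mRNA factors to -0.48 in the DNA replication genes, where most points lie below 0.

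Replication-independent histone variants can be made outside S phase, mostly from ordinary polyadenylated mRNAs, although H2afx also holds the stem-loop motif. Of 11 listed genes, 3 were called higher (23.8% of all tested genes) and 7 lower (26.0%), with a median log2 fold change of -0.33. The linker histone H1f0 fell from 368 ± 12.8 to 137 ± 7.36 CPM (± SD of 3 libraries; log2 fold change -1.42, SE 0.056, adjusted p = 6.08e-12 in edgeR). H2afz (H2A.Z) fell by 0.71 and the centromeric H3 variant Cenpa by 0.82 on the log2 scale. The genes for H3.3 moved apart: H3f3a rose by 0.57 and H3f3b fell by 0.46. H2afx, named for its stem-loop motif and outside the naming rule, rose from 28.3 ± 2.71 to 45.4 ± 2.54 CPM, which is a log2 fold change of 0.68 (adjusted p = 2.45e-06 in edgeR).

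Histone chaperones carry histones to and from DNA. Of 27 listed, 25 were tested, and 4 were called higher (23.8% of all tested genes) and 14 lower (26.0%), with a median log2 fold change of -0.23. Ssrp1, a subunit of the FACT complex, fell from 343 ± 16.4 to 128 ± 12.4 CPM, which is a log2 fold change of -1.43 (SE 0.0669, adjusted p = 4.47e-11 in edgeR). Asf1b, which hands H3 and H4 to assembly factors, fell by 1.44. Daxx, a chaperone of H3.3, fell by 1.09, the Cenpa chaperone Hjurp by 0.70 and the chromatin protein Dek by 0.81. Asf1a, with 0 counts in every library, and Cdan1, with 0 to 1, were not tested.

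DNA replication genes were mostly lower. Of 46 listed, 43 were tested, and 2 (Rpa1 and Mcm6) were called higher (23.8% of all tested genes) and 31 lower (26.0%), with a median log2 fold change of -0.48. Rpa1 and Mcm6 were named after their values had been seen. The 3 genes without a test, Tk1, Gins2 and Cdt1, had 0 counts in every library, and the reason was not tested. The higher calls fell to 0 without NC replicate 1, NC replicate 2 or miR-497 replicate 2, and to 1 without miR-497 replicate 1. Ccne1 (cyclin E1), which drives entry into S phase, fell from 51.8 ± 2.20 to 13.1 ± 1.96 CPM, which is a log2 fold change of -1.99 (SE 0.0953, adjusted p = 6.04e-11 in edgeR). The polymerase delta subunit Pold3 fell by 1.10, cyclin A2 (Ccna2) by 0.82, the initiation factor Mcm10 by 0.76 and the clamp loader subunit Rfc1 by 0.59.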

How the data were processed

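Raw counts per gene were deposited by the authors for 6 poly(A) libraries. The submitters' processing notes name GRCm38, STAR 2.5.4b, featureCounts, Subread 1.6.1 and edgeR 3.32.1. The annotation release, strand setting and treatment of reads that match several genes are not given in the sources used here. Of 55401 identifiers, 55141 matched GENCODE M21.

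Genes were filtered with filterByExpr, scaled by trimmed mean of M values and tested with edgeR 4.0.16 (R 4.3.3, quasi-likelihood, group only, Benjamini-Hochberg over all tested genes, threshold 0.05, 2-sided). SE is the absolute log2 fold change over the square root of F. The fit was tested on simulated data. Alternatives used other scalings, filters, DESeq2 1.42.0, limma 3.58.1 voom, a replicate block, GC and length offsets, and each library left out.

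Members and lists were chosen with earlier results of these data known. Histone genes named with values in every library were the 12 with the smallest p and the 6 highest in CPM per kilobase; the others were named with counts or a log2 fold change. Each list gave its 5 smallest p, and Slbp, Npat, Casp8ap2, Lsm10, Lsm11, Zfp473, Hinfp and Eri1 were always named. H2afx, Lsm4, Rpa1 and Mcm6 were named outside this rule, after their values had been seen. So were the untested Asf1a, Cdan1, Tk1, Gins2 and Cdt1. Tut4 and Tut7 had been listed under older symbols and were matched through RefSeq synonyms after results had been seen, which put Tut7 in place of Lsm4 among the 5; without them the factor list had 28 genes, 5 higher and 9 lower.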

Additional observations from a re-analysis of the deposited data

How the results depend on the processing

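The number of histone genes called was small and moved with the processing. With a mean count of at least 50 only 3 were tested, of which 2 were called lower and 0 higher. DESeq2 called 3 lower. Leaving out each library in turn gave 3 to 5 lower (3 without NC replicate 3 or without miR-497 replicate 2) and 0 to 1 higher (0 without NC replicate 1, NC replicate 3 or miR-497 replicate 3). Hist1h3e was also lost with no filter on low counts (adjusted p = 0.0571).

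The ratio of summed CPM of the genes that met the count rule was 0.7097; it was 0.6078 without Hist1h2bc, 0.8823 without Hist1h1c, Hist1h2bc and Hist1h4i (chosen after seeing the data), and 0.6924 to 0.7255 with a library left out. Histone mRNA factors called lower numbered 7 with upper-quartile scaling; with GC and length offsets they numbered 6, and 9 were higher. DNA replication genes called higher ranged from 0 to 2 with a library left out. Where no value shows it, the cause was not tested.

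The replicate number was used as a block although same-numbered libraries did not deviate together (r = -0.119, -0.0351 and -0.133). Under the replicate block 4 histone genes were lower and 1 higher (Hist1h3e was lost, adjusted p = 0.0543), and 0 DNA replication genes were higher. With the replicate block and the offsets for GC and length together, 8 histone mRNA factors were higher and 6 lower, and 1 DNA replication gene was higher.

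Log2 fold changes of genes that were not called changed sign. Hist1h4m was -0.004792 with no filter and -0.02542 with the offsets, and Zfp473 was 0.01361 with upper-quartile scaling. With a library left out, the ranges were -0.2163 to 0.2927 for Hist1h4m, -0.07167 to 0.6175 for Hist1h2bg, -0.1443 to 0.3977 for Hist1h2ae, -0.1475 to 0.6253 for Hist1h2bj, -1.306 to 0.05018 for Hist1h3c, -0.9645 to 0.2742 for Hist1h2bb, -0.9242 to 0.08539 for Hist1h3i, -0.02933 to 0.06449 for Eri1 and -0.1757 to 0.06689 for Zfp473.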
